A study of Homo sapiens with 9 samples.

Results

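Lipoprotein receptors and cholesterol exporters were followed through 8 genes in LiSa-2, an established line of human liposarcoma cells: the receptor genes VLDLR, LRP8, LRP1 and SCARB1, the exporter genes ABCA1 and ABCG1, the apolipoprotein gene APOE, and MYLIP, whose product removes lipoprotein receptors. They were chosen by name as a functional group, out of 19775 genes with a probe set of their own on the array. Earlier results of these data were known when the group was chosen. Every probe set with 1 of these symbols as its only gene symbol was taken, which gave 30 probe sets: 1 for VLDLR, 3 for LRP8, 4 for LRP1, 5 for SCARB1, 4 each for ABCA1 and ABCG1, 3 for APOE and 6 for MYLIP.

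Expression was measured on Affymetrix Human Genome U133 Plus 2.0 arrays, with 1 array for each of 9 samples. All samples were the same line on plates in medium with bovine serum. The groups were 3 samples given phosphate-buffered saline (PBS) and taken at 24 h, 3 given hyaluronidase from bovine testis (HAase), which degrades hyaluronan, a polysaccharide of the matrix, at 400 µg/mL for 6 h, and 3 given the same for 24 h. There was no 6 h PBS group, so at 6 h the treatment and the time of harvest cannot be told apart, and no sample had inactivated enzyme. The series title places the experiment in a study of how matrix remodeling bears on glucose metabolism.

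Cells take up cholesterol by receptors of the LDL receptor family, which carry lipoproteins into endosomes, and by SCARB1, which takes cholesteryl ester from high-density lipoprotein (HDL) without taking in the particle. They give cholesterol back by the transporter ABCA1, which loads it on lipid-poor apolipoproteins, by ABCG1, which passes it to HDL, and by secreting apolipoprotein E. When sterols accumulate, oxysterols activate the liver X receptors (LXRs), which switch on ABCA1, ABCG1, APOE and MYLIP. MYLIP, also called IDOL, is a ubiquitin ligase that marks LDL receptor family members, VLDLR and LRP8 among them, for breakdown. In fat cells, VLDLR and LRP1 help to take up triglyceride-rich lipoproteins and ABCA1 exports cholesterol from a large store.

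The promoters of the 4 genes with the largest fold changes are shown to set ABCA1 and MYLIP, both known LXR targets, beside the receptor genes VLDLR and LRP8. Each is the 150 bases before the transcription start in RefSeq (GRCh38.p14), written 5′ to 3′ along the gene. ABCA1 lies at chr9:104928156-104928305 on the minus strand, MYLIP at chr6:16128936-16129085 on the plus strand, VLDLR at chr9:2621637-2621786 on the plus strand and LRP8 at chr1:53328071-53328220 on the minus strand. Capitals mark matches, on either strand, to an LXR-type repeat (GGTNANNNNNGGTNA, 2 half-sites of the DR4 type) or to an E-box (CACGTG).
ABCA1: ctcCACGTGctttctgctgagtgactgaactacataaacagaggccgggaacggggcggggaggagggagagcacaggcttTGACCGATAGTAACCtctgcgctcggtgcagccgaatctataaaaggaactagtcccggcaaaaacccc
MYLIP: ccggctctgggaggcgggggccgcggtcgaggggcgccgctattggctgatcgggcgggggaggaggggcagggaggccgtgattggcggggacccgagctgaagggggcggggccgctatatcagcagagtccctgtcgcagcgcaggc
VLDLR: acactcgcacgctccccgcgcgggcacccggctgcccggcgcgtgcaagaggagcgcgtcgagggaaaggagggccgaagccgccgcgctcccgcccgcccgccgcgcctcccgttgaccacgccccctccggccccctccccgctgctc
LRP8: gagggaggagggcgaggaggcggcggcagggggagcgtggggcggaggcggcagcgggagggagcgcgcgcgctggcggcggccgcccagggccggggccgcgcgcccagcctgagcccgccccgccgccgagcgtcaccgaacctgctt

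Of the 8 genes, 6 were found in the promoter table, APOE with 3 starts. In the 250 bases before the start, the LXR-type repeat occurred in ABCA1, from base 69 to base 55 before the start, and in none of the other 5 genes' windows. The same letters were found in 0.533% of 35116 such windows of all genes. The E-box, a site for basic helix-loop-helix factors, was also found only in the window of ABCA1 among these 6 genes, and in 6.34% of all windows. No window of the 6 held the sterol regulatory element TCACNCCAC (0.883% of all windows) or the AP-1 site TGANTCA (6.57%). The GC box GGGCGG occurred in each of the 6 genes, against 42.6% of all windows. It overlaps neither marked match. The ABCA1 stretch was 56% G and C, that of MYLIP 74.7%, that of VLDLR 80% and that of LRP8 83.3%. A match describes letters and not a bound site. Sites outside these windows were not searched, so a window without a match does not set a gene apart from other LXR targets.

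Signals are linear brightness values per probe set, taken as already scaled by the authors. Levels of different probe sets are set side by side only to pick a gene's brightest, for the control level and in sums over markers. Such sums mostly follow the brightest probe sets. Differences were tested on log2(signal + 16) with limma across 13842 genes, each represented by its brightest probe set, with p-values adjusted over all of these genes and a call at an adjusted p under 0.05. The offset of 16 understates changes of dim genes. A signal was read as background where it did not exceed the brightest of 27 Bacillus subtilis control probe sets of its array, which lay between 34.23 and 64.98. Whether replicates came from different cultures is not stated, so p-values cover only the variation among these arrays, part or all of which could be technical.

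After 24 h of hyaluronidase, ABCA1 was 3.57-fold, LRP8 1.98-fold and VLDLR 1.49-fold higher than in PBS, MYLIP was 3.04-fold and APOE 1.35-fold lower, and LRP1 and SCARB1 did not pass the test. At 6 h the picture was another: MYLIP was already 2.96-fold lower, VLDLR was 2.54-fold lower, LRP8 was 1.22-fold higher on 1 of its 3 probe sets, and ABCA1 and APOE lay near their PBS level. Of 7 genes tested, 3 were thus higher and 2 lower at 24 h, where 17.5% and 22.8% of all genes tested were called higher and lower. At 6 h 1 was higher and 2 lower (15% and 27.4% of all genes). Between the times, 3 were higher and 1 lower at 24 h than at 6 h (19.7% and 13.3% of all genes). ABCG1 fell below the filter on dim genes and was not tested as a gene.

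**Figure D1:**
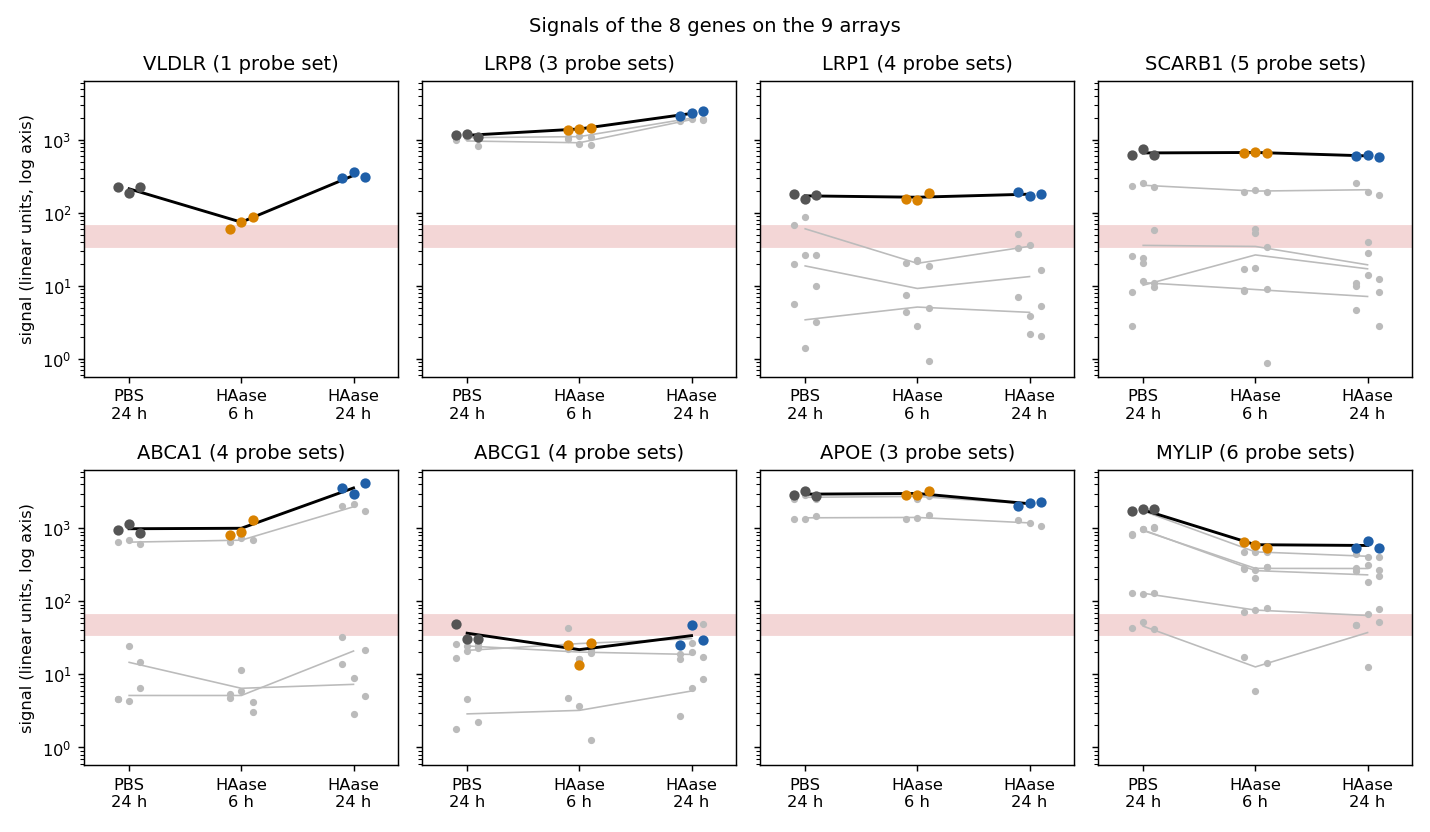
Signal of every probe set (linear units on a log axis) on the 9 arrays, by gene and group. Large coloured points and the black line through the group means are the probe set that represents the gene, grey points and lines are its other probe sets, and the pink band is the range of the brightest control probe set over the arrays (34.23 to 64.98); VLDLR dips at 6 h, ABCA1 and LRP8 are highest at 24 h, and MYLIP is low at both times.

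VLDLR, the very-low-density lipoprotein receptor, moved in opposite directions at the 2 times. Its single probe set read 226.7, 186.1 and 224.6 in PBS, 60.7, 73.67 and 88.32 after 6 h, and 303, 359.5 and 310.3 after 24 h. No array of any group overlapped with another group: the 6 h arrays were lowest and the 24 h arrays highest. The 6 h arrays all stood above their own control level, the dimmest at 60.7 against 48.81. Relative to PBS the log2 fold change was -1.35 ± 0.13 (SE, limma adjusted p = 0.000118) at 6 h and 0.58 ± 0.13 (0.00853) at 24 h. The 24 h arrays were 3.79-fold above the 6 h arrays (1.92 ± 0.13, adjusted p = 3.1e-05). With 1 probe set there was no second reading of this gene on the array.

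LRP8, the apolipoprotein E receptor 2, which also binds reelin, rose at 24 h on each of its 3 probe sets. The brightest read 1157, 1201 and 1087 in PBS, 1359, 1418 and 1432 at 6 h, and 2123, 2310 and 2437 at 24 h. The 24 h arrays lay above all others on this probe set and on the other 2. The log2 fold change at 24 h was 0.98 ± 0.07 (SE, limma adjusted p = 1.36e-05), and the other probe sets gave 0.88 and 0.97 in a fit over all 28764 probe sets tested. At 6 h the brightest probe set did not overlap with PBS either, at 0.29 ± 0.07 (limma adjusted p = 0.0103). The others did, at 0.05 (limma adjusted p = 0.628) and -0.07 (0.683), and the mean of the 3 gave 0.09 (0.392), so the 6 h call rests on 1 probe set. The rise from 6 h to 24 h was 0.70 ± 0.07 (limma adjusted p = 0.000186) and was called on all 3.

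LRP1, the large endocytic receptor for apolipoprotein E-rich remnants and for protease complexes, did not pass in any comparison. Its brightest probe set read 180.3, 155.5 and 174.8 in PBS, 154.3, 149.5 and 185.3 at 6 h, and 192.3, 169 and 177.7 at 24 h, and all groups overlapped. The 95% interval of the log2 difference from PBS ran from -0.14 to 0.29 at 24 h and from -0.28 to 0.16 at 6 h. A second probe set was above its control level on 2 PBS arrays and on no HAase array, and did not pass in any comparison. No fold is given for it, since the treated arrays were at background. The other 2 probe sets were not above background on any array.

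SCARB1, the HDL receptor, did not pass either. Its brightest probe set read 611.7, 747.7 and 617.2 in PBS, 660.2, 683.6 and 663.3 at 6 h, and 591.7, 622.3 and 585.7 at 24 h. The 24 h arrays overlapped with PBS and lay below all 6 h arrays, at a log2 difference between the times of -0.15 (limma adjusted p = 0.193). The interval of the difference from PBS ran from -0.31 to 0.06 at 24 h and from -0.16 to 0.22 at 6 h. A dimmer probe set gave -0.25 at 6 h (limma adjusted p = 0.189) and -0.21 at 24 h (0.272). Of the other 3, 1 exceeded the control level on 2 arrays at 6 h and 1 at 24 h and did not pass, and 2 were too dim to be tested.

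MYLIP, the ligase that targets lipoprotein receptors, was lower at both times to nearly the same level. The representative probe set read 1718, 1845 and 1826 in PBS, 655.2, 596 and 542.7 at 6 h, and 537.1, 672.3 and 541.3 at 24 h. PBS stood apart from both treated groups, which overlapped with each other. The log2 fold change was -1.57 ± 0.10 (SE, limma adjusted p = 1.68e-05) at 6 h and -1.60 ± 0.10 (9.92e-06) at 24 h. The difference between the times was -0.04, with an interval from -0.28 to 0.20 (limma adjusted p = 0.822).

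The 6 MYLIP probe sets agreed in direction at both times. All 6 were called lower at 6 h, by log2 values from -0.66 to -1.82, and 5 of 6 at 24 h, where the sixth, the dimmest, gave -0.31 (limma adjusted p = 0.532). That probe set was above its control level on 1 PBS array, no 6 h array and 1 array at 24 h, and its 6 h call (limma adjusted p = 0.0343) was lost without the filter on dim signals (0.0523). The tightest readings came from a probe set at 1694, 1752 and 1738 in PBS, 475.2, 475.1 and 480.4 at 6 h and 441.7, 401.3 and 403.4 at 24 h. On it the 24 h arrays lay below the 6 h arrays, with a difference of -0.19 that did not pass (limma adjusted p = 0.0583).

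ABCA1, the exporter that starts HDL formation, was higher at 24 h and not at 6 h. Its brighter probe set read 958.8, 1155 and 854.5 in PBS, 817.4, 901.4 and 1292 at 6 h, and 3602, 2973 and 4164 at 24 h. The 6 h arrays lay across the PBS range, and the lowest 24 h array, at 2973, stood above the highest of the others, at 1292. The log2 fold change was 1.84 ± 0.20 (SE, limma adjusted p = 0.000192) at 24 h and 0.00, with an interval from -0.46 to 0.47, at 6 h (limma adjusted p = 0.993). The other probe set above background read 642.8, 696.6 and 606.3 in PBS, 644.8, 737.5 and 687.1 at 6 h, and 2054, 2134 and 1747 at 24 h, a log2 fold change of 1.58 at 24 h. Of the 4 ABCA1 probe sets, the remaining 2 were not above background on any array, and the mean over all 4 gave 0.95 against PBS and 1.03 against 6 h, still called.

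ABCG1, the partner exporter that passes cholesterol to HDL, was at or near background throughout. Its brightest probe set read 48.61, 30.84 and 30.65 in PBS, 25.38, 13.37 and 26.84 at 6 h, and 24.99, 47.24 and 29.72 at 24 h. It exceeded the control level on 1 PBS array, no 6 h array and 1 array at 24 h, and a second probe set did so on 1 array at 24 h. Of its 4 probe sets 2 entered the test over probe sets, and neither passed in any comparison. No fold change is given for a gene at this level.

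APOE, a ligand of the LDL receptor family and a carrier of exported cholesterol, was lower at 24 h. Its brightest probe set read 2850, 3204 and 2784 in PBS, 2890, 2892 and 3243 at 6 h, and 2029, 2228 and 2277 at 24 h. The 24 h arrays lay below all others, while 6 h and PBS overlapped. The log2 fold change at 24 h was -0.43 ± 0.08 (SE, limma adjusted p = 0.00357) against PBS and -0.46 ± 0.08 (0.00353) against 6 h. A second probe set passed at -0.30 (limma adjusted p = 0.0419), a call lost without the filter (0.077), and the third, whose x suffix marks probes that may match other transcripts, gave -0.23 without overlap and did not pass (limma adjusted p = 0.0998). At 6 h the difference from PBS was 0.03, with an interval from -0.16 to 0.22.

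**Figure D2:**
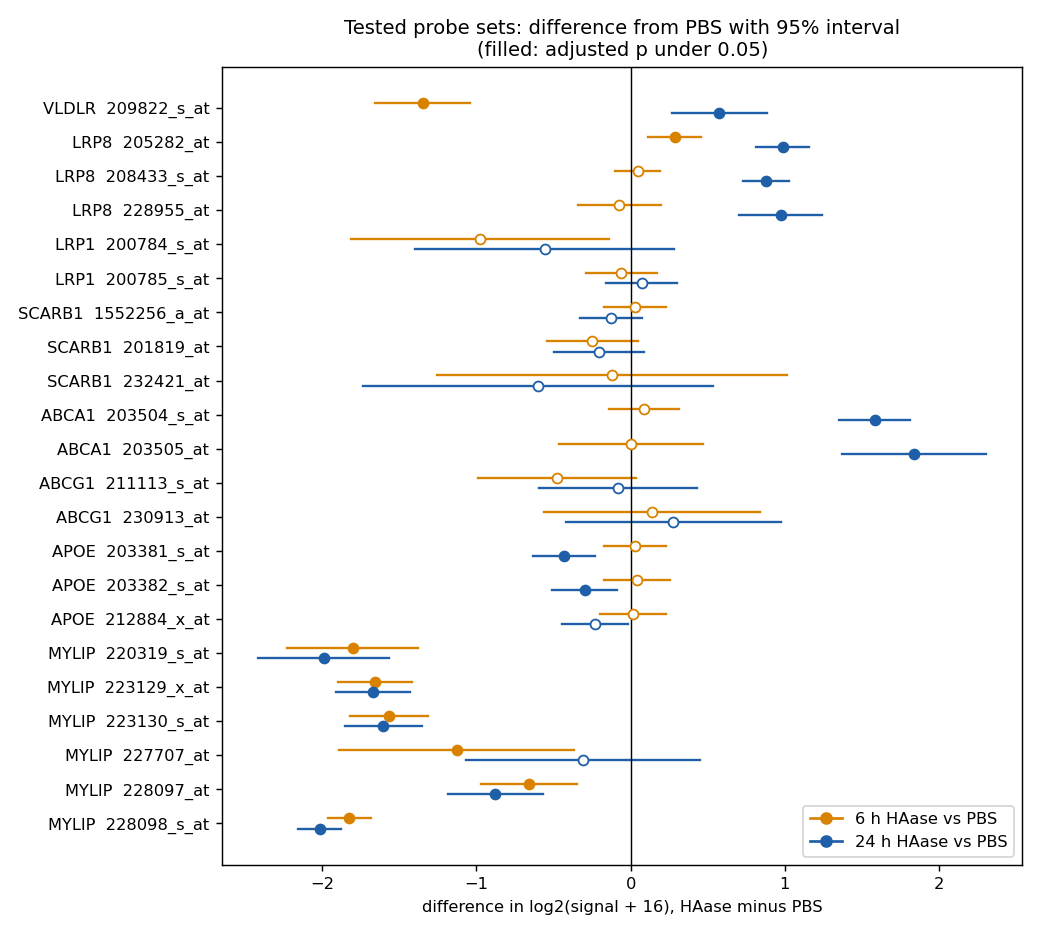
Difference in log2(signal + 16) from PBS for the 22 tested probe sets, with 95% intervals from the fit over all probe sets, after 6 h (orange) and 24 h (blue) of HAase; filled points have an adjusted p under 0.05. The intervals of the brighter MYLIP probe sets lie far below 0 at both times, those of ABCA1 and LRP8 lie above 0 at 24 h, and the VLDLR points lie on opposite sides of 0.

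Over probe sets, 22 of the 30 passed the filter on dim signals, which was set on the mean of all arrays. Of these, 13 were called at 24 h (6 higher and 7 lower), where 30.3% of all probe sets tested were called. At 6 h 8 were called, 1 higher and 7 lower, again with 30.3% of all. Between the times 8 were called, 6 higher and 2 lower at 24 h, with 22.1% of all. The 7 lower calls at 6 h were the 6 of MYLIP and that of VLDLR. Of the 8 probe sets left out, 7 exceeded the control level on no array. The counts follow how many probe sets a gene has and are not independent readings. Comparisons with PBS share the same 3 PBS arrays.

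The other genes of lipoprotein and cholesterol handling were described in 8 lists, chosen with earlier results of these data known. The lists share genes, so their counts are not separate readings: NR1H3 counts both with LXR and with its targets. STARD4 counts both in sterol synthesis and in intracellular transport. LPL and PPARG are also adipocyte markers below. Across all 13842 genes the median log2 difference was -0.03 at 24 h and -0.08 at 6 h. Of all these genes 17.5% were called higher and 22.8% lower at 24 h, and 15% and 27.4% at 6 h, and each list's counts are to be read against these shares. In the list of LDL receptor family members and their adaptors, 2 of 12 tested genes rose and 3 fell at 24 h, and 2 rose and 5 fell at 6 h, with medians of -0.05 and -0.12, which is near the shares over all genes at 24 h. The clathrin adaptor gene DAB2, which binds the tails of these receptors, went from 2022 ± 102 in PBS to 4598 ± 35.5 at 6 h and 3349 ± 134 at 24 h (SD, n = 3 each). LRP12 was 1.51-fold higher at 6 h and 1.83-fold at 24 h. SNX17, a sorting nexin that recycles LRP1 to the surface, was 1.33-fold and 1.39-fold lower at these times (the 6 h call was lost in 3 of 19 alternatives, each with PBS replicate 2, PBS replicate 3 or 6 h replicate 3 left out), and LRP3 1.25-fold and 1.33-fold lower.

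Among scavenger receptors and partners of the HDL receptor, 1 of 10 rose and 4 fell at 24 h, and 2 rose and none fell at 6 h by limma's test (medians -0.27 and -0.01). CD36, which takes up fatty acids and oxidised lipoproteins, gave 25140 ± 1480 in PBS, 26280 ± 845 at 6 h and 15750 ± 610 at 24 h (SD, n = 3 each). MSR1, a scavenger receptor of macrophages, was 3.93-fold lower at 24 h on its brightest probe set, to a level above the control on 2 of 3 arrays. The mean of its probe sets gave a log2 difference of -0.66 in place of -1.97, and that of CD36 -1.12 in place of -0.67, both still called. SCARA5, a ferritin receptor, was above the control on 2 of 3 PBS arrays and at least 1.67-fold lower at 24 h, where none was. CXCL16, a chemokine that as a membrane protein binds oxidised lipoprotein, was 1.75-fold higher at 6 h and 1.96-fold at 24 h, from a level above the control on 1 of 3 PBS arrays.

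In a list of LXR, RXR, coregulator and PPAR genes, 4 of 7 tested genes fell at 24 h and 4 of 7 at 6 h, with 1 higher each time (medians -0.45 and -0.46). Those tested were NR1H3, RXRA, RXRB, NCOA1, PPARA, PPARD and PPARG, and NR1H2, which encodes LXR beta, was not among them. NR1H3, RXRA and PPARG were lower at both times, RXRB at 24 h and PPARA at 6 h. NR1H3, which encodes LXR alpha, went from 364.5 ± 26.6 in PBS to 235.7 ± 3.71 at 6 h and 214.1 ± 19.6 at 24 h (SD, n = 3 each). RXRA, the partner of LXR on DNA, was 2.36-fold lower at 6 h and 1.84-fold at 24 h. PPARG, the main adipogenic receptor, was 1.37-fold and 2.77-fold lower. PPARD, a related fatty acid receptor, was the gene that rose, 2.22-fold at 6 h and 1.32-fold at 24 h, with log2 differences of 0.71 and 0.21 when its probe sets were averaged.

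Of 10 tested LXR target genes besides the members, 6 fell and 1 rose at 24 h and 5 fell and 1 rose at 6 h (medians -0.58 and -0.26). The desaturase gene SCD was 3.95-fold lower at 24 h, and 1.15-fold lower at 6 h, a call that was lost in 11 of 19 alternatives and turned to a difference of 0.21 with the mean of its probe sets. The lipoprotein lipase gene LPL went from 7667 ± 243 in PBS to 1933 ± 21.5 at 24 h (SD, n = 3 each), with 7177 ± 109 at 6 h. SREBF1, which drives fatty acid synthesis, was 1.49-fold lower at 6 h and 1.83-fold at 24 h, and MLXIPL 1.67-fold and 3.18-fold, the latter to a level above the control on 2 of 3 arrays. The 6 h calls of SREBF1 and MLXIPL were lost in 9 and 11 of 19 alternatives. LPCAT3, a phospholipid-remodelling enzyme and the target that rose, gave log2 differences of 0.54 at 6 h and 0.62 at 24 h. It is named after its values were seen.

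Sterol synthesis and SREBP2 control genes fell in 15 of 20 at 24 h and 13 of 20 at 6 h, with 1 and 2 higher (medians -0.57 and -0.39). LSS, lanosterol synthase, was 1.86-fold lower at 6 h and 3.03-fold at 24 h. HMGCS1, an early enzyme of the pathway, went from 4308 ± 119 in PBS to 2798 ± 154 and 2047 ± 115 (SD, n = 3 each). HSD17B7 was 1.79-fold and 1.43-fold lower and PMVK, phosphomevalonate kinase, 1.57-fold and 1.79-fold lower. The gene higher at 24 h was INSIG1, an inhibitor of SREBP processing, at a log2 difference of 0.51, against -0.39 at 6 h. It too is named after its values were seen.

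**Figure D3:**
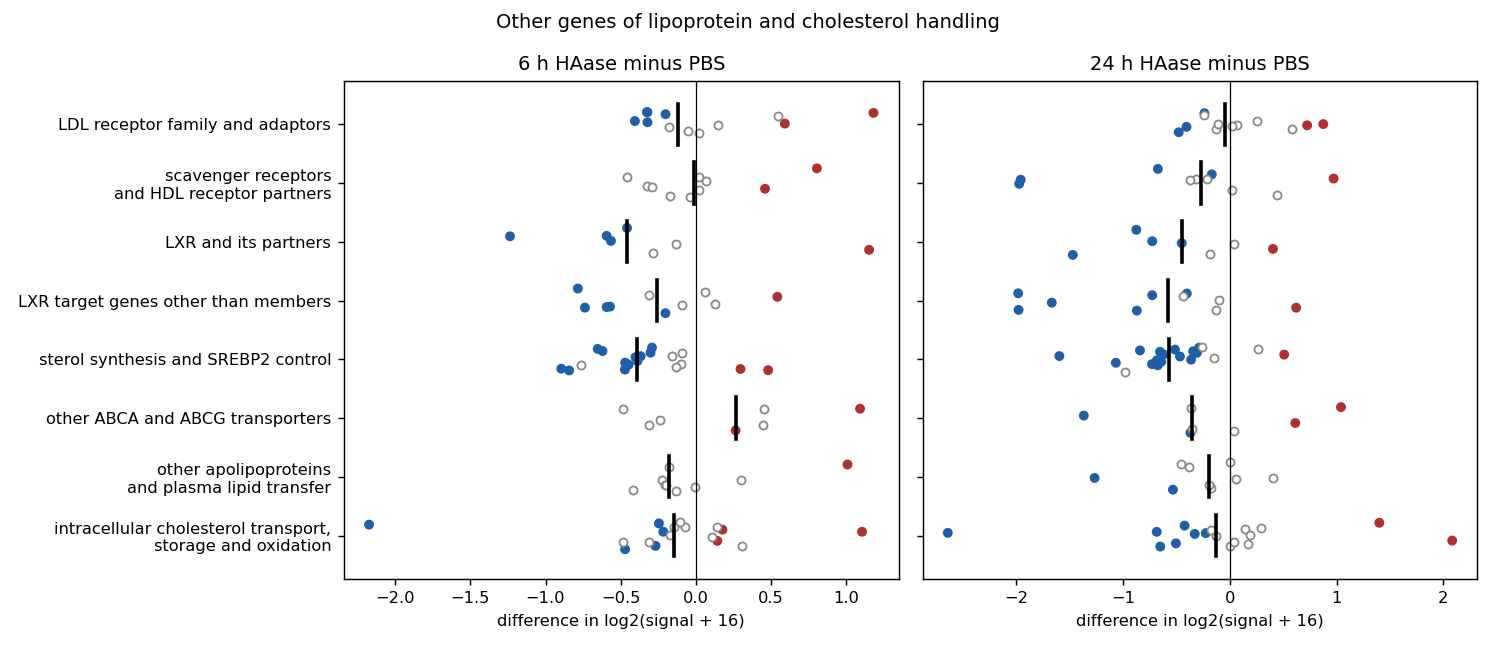
Difference in log2(signal + 16) from PBS for each tested gene of the 8 lists, after 6 h (left) and 24 h (right) of HAase; filled points were called higher (red) or lower (blue), open points did not pass, and the black bar is the list's median. Most sterol synthesis points lie left of 0 at both times, with a median of -0.39 at 6 h and -0.57 at 24 h.

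Of the other ABCA and ABCG transporters, 2 of 7 tested rose and 2 fell at 24 h, and 2 rose and none fell at 6 h by limma (medians -0.36 and 0.26). ABCA5 went from 1379 ± 68.5 in PBS to 1107 ± 50.2 at 6 h and 529.7 ± 101 at 24 h (SD, n = 3 each). ABCG2, a drug and urate exporter, was 1.20-fold higher at 6 h, a call lost in 7 of 19 alternatives, and 1.29-fold lower at 24 h. ABCA3, a lipid transporter of lung surfactant, passed as higher at both times from PBS arrays that were all at background, and its treated arrays exceeded the control on 2 of 3 each, so no fold is given. Its 24 h call was lost without PBS replicate 2 (limma adjusted p = 0.0572), PBS replicate 3 (0.057) or HAase 24 h replicate 3 (0.0561).

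Of 9 other apolipoprotein and lipid transfer genes tested, 2 fell and none rose at 24 h, and 1 rose and none fell at 6 h by limma (medians -0.19 and -0.18). CLU, which encodes apolipoprotein J, was 2.41-fold lower at 24 h (log2 -1.27, or -0.73 averaged over its probe sets), and APOO, a protein of the mitochondrial inner membrane, 1.45-fold lower. LCAT, which esterifies cholesterol on HDL, read 152.3 ± 45.5 in PBS, 321.5 ± 91.3 at 6 h and 151.3 ± 37.9 at 24 h (SD, n = 3 each), and its rise at 6 h passed at an adjusted p of 0.0253 by limma. That call was lost in 4 of 19 alternatives: with the mean of its probe sets and without PBS replicate 3, 6 h replicate 1 or 6 h replicate 3.

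Of 17 tested genes of intracellular cholesterol transport, storage and oxidation, 2 rose and 7 fell at 24 h and 3 rose and 5 fell at 6 h (medians -0.13 and -0.15). NPC1, which moves cholesterol out of lysosomes, went from 4691 ± 46.3 in PBS to 10110 ± 492 at 6 h and 12430 ± 866 at 24 h (SD, n = 3 each), a log2 difference of 1.40 at 24 h that was 0.80 for the mean of its probe sets. NCEH1, which hydrolyses cholesteryl ester, went from 340 ± 30.2 to 1494 ± 151 at 24 h, with 425.5 ± 45 at 6 h (SD, n = 3 each). LIPE, hormone-sensitive lipase, was 4.51-fold lower at 6 h and 6.24-fold at 24 h. STARD4, a sterol carrier, was 1.39-fold and 1.61-fold lower.

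The genes whose log2 signals ran most like those of a member over the 9 arrays are given by Pearson's r, without a test, since 3 groups dominate such values. VLDLR was most like SUMO3 (r = 0.9929), which went from 12490 ± 122 in PBS to 11120 ± 244 and 12940 ± 269 (SD, n = 3 each), and KIF13A (0.9871). LRP8 was most like LOXL2 (0.9963), a lysyl oxidase, and C12orf75 (0.9948). ABCA1 was most like DEDD2 and GNE (0.9865 each), MYLIP most like the corepressor TLE1 (0.9953) and PRKACB (0.9939), and APOE most like the complement protease C1S (0.9862) and DIP2C (0.9824). For LRP1 (LINC01226, 0.9456, and PAX9, 0.9344) and SCARB1 (ZBTB2, 0.9325, and ZNF529, 0.9245) the highest values were lower.

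Arrays of 1 group correlated at r of 0.989 or more across genes, and arrays of different groups at 0.974 or less. The labelled cell type was checked by markers. Of 5 liposarcoma amplicon markers measured, MDM2, CDK4, CPM and YEATS4 exceeded the control level on all arrays. HMGA2 went from 51.03 ± 8.52 in PBS, above the control on 1 of 3 arrays, to 724.6 ± 29.5 at 6 h and 1643 ± 70.9 at 24 h (SD, n = 3 each). In PBS 8 of 9 adipocyte markers and 7 of 9 mesenchymal markers exceeded the control level on all arrays, with leptin (LEP) at background. The summed adipocyte signal went from 57620 to 59710 in PBS to 45090 to 47360 at 6 h and 28990 to 33600 at 24 h. FABP4, the brightest of these, went from 33300 ± 619 in PBS to 31930 ± 881 at 6 h and 26100 ± 2470 at 24 h. CEBPA fell further, from 7089 ± 352 in PBS to 793.6 ± 95.4 at 6 h and 1002 ± 49.2 at 24 h. Of 8 adipocyte genes tested, 6 were lower at 6 h and 8 at 24 h by limma, and none was higher than PBS. The dimmer ADIPOQ went from 926 ± 13.2 to 371.2 ± 10.4 and 38.73 ± 16.1 (SD, n = 3 each), the last above the control on 1 of 3 arrays. The summed mesenchymal signal was 54900 to 58270 in PBS, 52910 to 54080 at 6 h and 35460 to 43540 at 24 h, with 5 of 8 tested genes lower and none higher at 24 h by limma. VIM, the brightest of these, read 27450 ± 1200 in PBS, 28210 ± 700 at 6 h and 29100 ± 4070 at 24 h. COL3A1 read 18100 ± 449, 15830 ± 181 and 6327 ± 220 (SD, n = 3 each). The epithelial sum was 468.1 to 729.7 in PBS, 372.7 to 432.6 at 6 h and 241.2 to 346.7 at 24 h. KRT14 went from 310.5 ± 67.4 in PBS to 14.68 ± 18.6 at 24 h (SD, n = 3 each), where it and KRT5 were at background. KRT8 did not fall, at 132.9 ± 4.46 in PBS, 174.3 ± 38.8 at 6 h and 145.9 ± 5.96 at 24 h. KRT18 exceeded the control on no PBS array and on 2 arrays at 24 h. EPCAM and CDH1 were at background throughout. Of 4 epithelial genes tested, 1 was lower and none higher at 24 h by limma. In such bulk samples, fewer cells of a type and less RNA per cell cannot be told apart. Of the 12 macrophage and leukocyte markers measured 5 exceeded the control on all arrays in each group, and their summed signal was 544.4 to 617.3 in PBS, 765.3 to 848.7 at 6 h and 1919 to 2003 at 24 h. LAPTM5 (869.2 ± 45.8) and CD163 (508.1 ± 19.7) gave most of the last sum (SD, n = 3 each), while the pan-leukocyte gene PTPRC and TYROBP exceeded the control on no array. Of 5 such genes tested, 4 were higher and none lower at 24 h by limma. MRC1 went the other way, from 55.95 ± 9.79 in PBS to 22.98 ± 8.3 at 6 h and 9.02 ± 9.14 at 24 h. It exceeded the control on 2 of 3 PBS arrays and on no treated array. The endothelial sum was 331.3 to 395.9 in PBS, 409.7 to 461.8 at 6 h and 451.6 to 497 at 24 h. PECAM1, the 1 endothelial gene tested, read 236.1 ± 7.41, 315.7 ± 15.7 and 348.8 ± 26.9 (SD, n = 3 each). PECAM1 was called higher than PBS at both times by limma. VWF went the other way, exceeding the control on 2 PBS arrays, 1 at 6 h and none at 24 h. CDH5, TEK, EMCN, CLDN5 and TIE1 did so on no array. The part of these shifts in the values of ABCA1, APOE and the other members was not tested. The log2 difference between 3′ and 5′ control probe sets of ACTB, a sign of RNA quality, ran from 1.56 to 1.70 in PBS, 1.14 to 1.5 at 6 h and 1.38 to 1.62 at 24 h, and its part was not tested either.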

How the data were processed

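The deposited table holds 1 linear signal intensity per probe set and array, which the authors made from Affymetrix CHP files for public use, per the labels' design text. The summarisation method is not given in the sources used here. Trimmed means lay between 500.07 and 500.075 on all 9 arrays, so the values were taken as scaled. Values were set to log2(signal + 16). Genes were named by the platform table from probe sets with 1 symbol and represented by the probe set of highest mean. Those under the 30th percentile of the mean over all arrays (a signal of 32.24 for genes and 24.02 for probe sets) were left out. All 9 arrays entered 1 limma fit (limma 3.58.1, R 4.3.3) with Benjamini-Hochberg adjustment, and the script was tested on simulated data. The precision is limited by 3 arrays per group.

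The members and gene lists were chosen with earlier results of these data known. Every member was named, with up to 4 genes per list that passed against PBS without overlap, by size of change, and the 2 genes most like each member. The alternatives were another offset, filter, scaling, probe set rule or variance model, only the groups compared, the replicate block, and each array left out.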

Additional observations from a re-analysis of the deposited data

Results flagged for a closer look

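For 4 members the HAase arrays of 24 h differed from those of 6 h by limma's test. With no PBS samples at 6 h, a differing response and the hour of harvest cannot be told apart. VLDLR was higher at 24 h by 1.92 on the log2 scale, LRP8 by 0.70 and ABCA1 by 1.83, while APOE differed by -0.46. Of all genes tested, 19.7% were called higher and 13.3% lower at 24 h than at 6 h. In each of the 4 all 3 arrays at 24 h lay on the same side of all 3 arrays at 6 h. The 4 were picked by the test on these same arrays, so this lack of overlap is no separate support. The share of all genes without such overlap was not counted.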

How the results depend on the processing

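Of 12 calls for members, 11 kept their direction and their side of the threshold under all 19 alternatives. The exception was LRP8 at 6 h, where the mean of its probe sets gave 0.086 (limma adjusted p = 0.392). None of the 9 member comparisons that did not pass did so under an alternative, and 6 changed sign. The replicate block left 5, 3 and 4 members called at 24 h, at 6 h and between the times. Same-numbered arrays correlated from -0.0488 to 0.0369 in their deviations and differently numbered arrays from -0.0644 to 0.057. No shared effect of the replicate number was thus seen, which cannot tell whether samples were paired by culture or day. Members called ranged from 5 to 5, 2 to 3 and 4 to 4 over all alternatives, and all genes called from 4550 to 5985, 4628 to 6262 and 3271 to 5051. The same alternatives were run on the list genes after the data had been seen: list genes called ranged from 46 to 55 at 24 h (51 in the main setting), 30 to 47 at 6 h (44) and 30 to 40 between the times (37). The 6 h count was lowest without PBS replicate 2 (30), with the mean of probe sets (31), without 6 h replicate 2 (31) and with no filter (32). Of the comparisons of named list genes with each alternative, 1573 kept direction and side, 83 lost their call, 26 gained one and 13 turned sign. Without the filter, member probe sets called were 13, 7 and 7 in place of 13, 8 and 8: calls were lost for a probe set of APOE at 24 h and between the times and a probe set of MYLIP at 6 h, and a background ABCA1 probe set gained one at 24 h. The causes were not tested.

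With the mean of probe sets, log2 differences turned to -0.193 for LRP1 and -0.063 for LCAT at 24 h, to -0.081 for ABCA1, -0.045 for CD36, 0.211 for SCD and 0.037 for CLU at 6 h, and to 0.029 for MYLIP and -0.115 for NPC1 between the times. Quantile normalization gave 0.031 for LRP1 at 6 h, and equal array medians gave -0.003 for LCAT at 24 h. With 1 array left out, values ran from -0.022 to 0.12 for SCARB1, from -0.191 to 0.134 for ABCA1 and from -0.024 to 0.092 for APOE at 6 h, from -0.245 to 0.207 for LCAT at 24 h, and between the times from -0.141 to 0.029 for MYLIP, from -0.137 to 0.0 for LRP3 and from -0.218 to 0.175 for ABCA3. None of these passed the test in the main setting except SCD at 6 h and NPC1 between the times. Signal over background limits ABCG1, whose probe sets were at or near the control level.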
